A study of Arabidopsis thaliana with 6 samples.

Results

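Phytochromes are the red and far-red light receptors of plants, and light-activated phytochromes in the nucleus bind the bHLH transcription factor PIF4 and lead to its degradation. This account describes PIF4 binding at the 5 phytochrome genes of Arabidopsis thaliana and at 4 genes of the route that brings phytochrome A into the nucleus. The 9 genes were chosen by name from 27444 protein-coding genes on chromosomes 1 to 5, and every deposited peak that overlapped one of them or the 3 kb on either side was taken. There were 27 such peaks among 19201, of which 14 came from list 1, 7 from list 2 and 6 from list 3.

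Binding was mapped by chromatin immunoprecipitation and sequencing (ChIP-seq) with an anti-Myc antibody in 2 groups of whole seedlings. The PIF4-Myc seedlings overexpressed PIF4 with a Myc tag, and the design text calls the tagged line P1M without saying what that name stands for. The controls were wild-type seedlings without the tag, precipitated with the same antibody. Both groups were harvested after 3 d in darkness at 21 °C, following 3 h of white light to induce germination, and each group had 3 libraries, each made from pooled DNA of 4 ChIP assays of 2 biological replicates. The data are 3 peak lists, one per PIF4-Myc library and numbered as the labels number them, so wild-type ChIP enters only as the control inside each list. Because PIF4 was overexpressed and whole seedlings were used, the peaks do not show binding at the native PIF4 level or in a given tissue.

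Phytochrome A accumulates in darkness and is the receptor for far-red light, while phytochrome B is the main red light receptor of light-grown plants. Phytochromes C, D and E are light-stable, and D is the closest relative of B. FHY1 and its homologue FHL are small proteins that carry light-activated phytochrome A into the nucleus. FHY3 and FAR1 are transposase-derived transcription factors that activate the FHY1 and FHL genes.

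The lists differed in size, and they are not of equal quality. They held 12177, 4093 and 2931 peaks with median folds of 0.99, 2.46 and 4.17 in lists 1, 2 and 3, where the fold is the authors' ratio of tags at a peak's summit to the local expectation from the wild-type control. In list 1 a fold below 1 was given to 51.2% of the peaks, although each had passed the caller's p cutoff, and every tag value was a multiple of 5. Lists 2 and 3 had high values of the caller's false discovery rate, a percent given for each peak. Its median was 3.81% in list 1, 63.9% in list 2 and 65.2% in list 3. It was 1% or less for 166, 85 and 2 peaks of lists 1, 2 and 3. The headers gave 12766185, 9385807 and 12292381 treatment tags for lists 1, 2 and 3. Lists 2 and 3 shared a start or an end to the base in 1838 of 2454 overlapping peak pairs (74.9%), so they were not read as independent. The PIF4 gene itself (AT2G43010) had folds of 2.18, 5.64 and 5.05 in lists 1, 2 and 3. As the tagged seedlings overexpressed PIF4, these folds were not read as binding at its own gene or as a check of the lists. All folds are values of single peaks and have no replicate error, and folds of different lists were not tested against each other.

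PIF4-Myc peaks lay near 5 of the 9 genes in both list 2 and list 3, namely PHYA, PHYB, PHYE, FHY1 and FHL, against 17.1% of all protein-coding genes. PHYA, PHYB, FHY1 and FHL also had a list 1 peak, which made 4 of 9 genes with a peak in all 3 lists, against 12.7% of all genes. The 5 genes are also those with a peak in at least 2 lists, which 26.0% of all genes had. PHYD, FHY3 and FAR1 had list 1 peaks alone, a pattern of 42.0% of all genes, and PHYC had none, as did 28.6%. In single lists, 7 of the 9 genes had a peak in list 1, 5 in list 2 and 5 in list 3, beside 63.5%, 26.4% and 20.2% of all genes. The list 1 count is close to its background, and the counts of lists 2 and 3 are above theirs, but the 9 genes were picked with results of these data known and no test was made. Among the 7 members of 4 kb or more, 3 had peaks in both lists 2 and 3, beside 19.3% of all genes of that length.

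These counts depended on what is asked of a peak. When each summit was given only to its nearest gene, PHYA, PHYB and FHL remained for lists 2 and 3 (7.49% of all genes) and PHYA and PHYB for all 3 lists (4.12%). A caller's false discovery rate of 1% or less left only 166, 85 and 2 peaks in lists 1, 2 and 3. No member then had a peak in 2 lists, and the share of all genes that did was 0.0838%. With so few peaks left, that count says little about these genes.

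**Figure D1:**
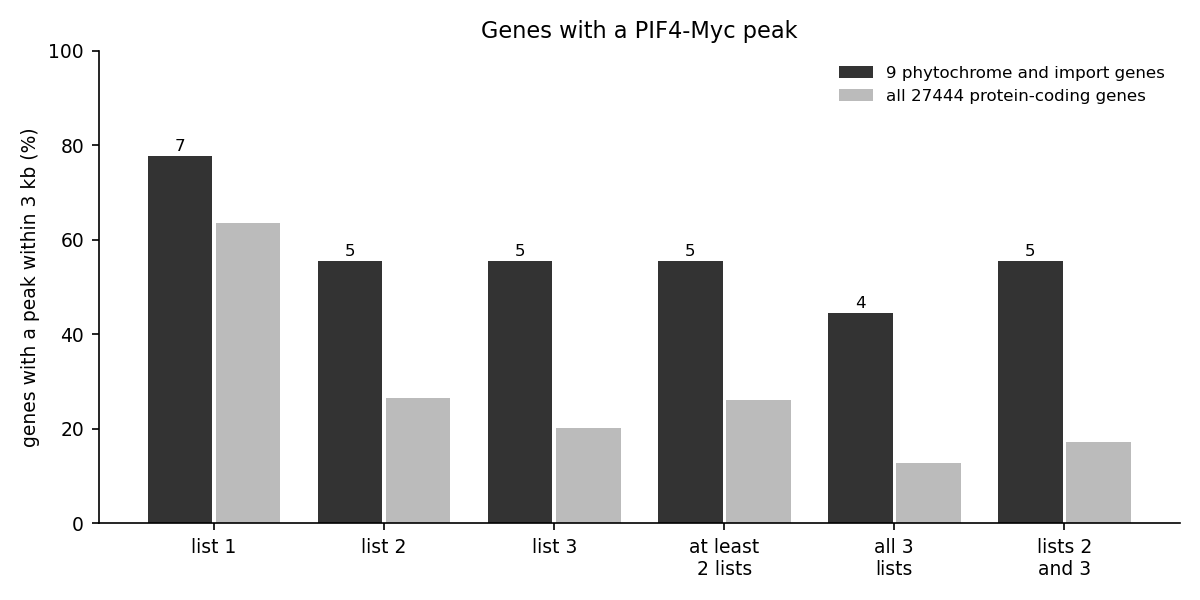
Genes with a PIF4-Myc peak over the gene or within 3 kb, as a percentage, for the 9 phytochrome and import genes (dark bars, number of genes above) and for all 27444 protein-coding genes (light bars), by list and by combination of lists. The 5 members with peaks in lists 2 and 3 stand beside 17.1% of all genes, while the 7 members with a list 1 peak stand beside 63.5%.

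PHYB (AT2G18790) had the highest fold of the 9 genes in lists 2 and 3, but not in list 1. In TAIR10 coordinates, used throughout, it lay at chr2:8139171-8139640 in list 1, chr2:8138595-8142077 in list 2 and chr2:8137816-8142077 in list 3. Its folds were 0.99 in list 1, 9.83 in list 2 and 13.7 in list 3. By fold, list 1 thus stood at the median of its list while lists 2 and 3 were high. It ranked 5944 of 12177, 11 of 4093 and 20 of 2931 peaks by fold. By the caller's p it ranked 1181, 27 and 99 in lists 1, 2 and 3, so the list 1 peak stood higher by p than by fold. In lists 2 and 3 the summit was the same base, 8139615, which is 141 bp outside the low-coordinate end of PHYB and 1473 bp from the next nearest gene, AT2G18780. The annotation used carries no strand, so the ends of a gene are named by coordinate. The list 1 summit lay 338 bp outside the same end and 197 bp from the other summit. Both broad peaks reached 2322 bp into PHYB, which was 66.7% of the peak in list 2 and 54.5% in list 3. They held 1198 tags in list 2 (exact 95% Poisson interval 1131 to 1268) and 1108 tags in list 3 (1044 to 1175), and such intervals cover counting error only. The false discovery rate of this peak was 1.61% in list 1, 0% in list 2 and 15.2% in list 3.

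PHYA (AT1G09570) carried peaks on both sides of the gene and, in list 2 alone, over most of it. At the high-coordinate end one region was found in all 3 lists, at chr1:3099784-3103607 in list 2 and chr1:3099766-3103607 in list 3. Its folds were 3.78 in list 2 and 5.86 in list 3, ranks 488 of 4093 and 523 of 2931. The list 2 and list 3 summits lay inside PHYA, 478 and 496 bp from that end and 18 bp from each other. List 1 had 2 peaks under this region, at chr1:3101030-3101738 and chr1:3101781-3102116 with folds of 0.76 and 0.62, whose summits were both inside the neighbouring gene AT1G09575. The nearer of these summits was 1151 bp from the list 2 summit, so the 3 lists overlapped there without marking the same position. The tags in the broad peak numbered 1022 in list 2 (interval 960 to 1087) and 816 in list 3 (761 to 874), with false discovery rates of 10.4% and 22.01%.

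At the other end of PHYA the lists did not match as well. List 2 alone had a peak of 4911 bp over most of the gene, at chr1:3094562-3099472, the 10th widest of its 4093 peaks. Its fold was only 1.64, rank 3978 of 4093, with a false discovery rate of 69.2%. The summit was inside the gene, 3206 bp from its low-coordinate end. List 1 had 2 short peaks inside the borders of this list 2 peak, at chr1:3094852-3095452 and chr1:3095468-3095742 with folds of 0.93 and 0.54. Their summits were 27 and 421 bp inside the low-coordinate end. The remaining 2 list 1 peaks near PHYA had folds of 0.72 and 1.00 and summits in AT1G09550 and in the germin-like gene GLP5.

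Among the light-stable phytochromes other than B, no peak of list 2 or 3 had its summit in the gene or within 3 kb. PHYE (AT4G18130) met the rule through 1 peak each of lists 2 and 3, at chr4:10049203-10049902 and chr4:10049205-10049902. Their folds were 2.60 and 3.87, close to the medians of their lists, at ranks 1747 of 4093 and 1754 of 2931, with false discovery rates of 67.2% and 86.3%. Their edges were 2857 and 2859 bp from PHYE, just inside the 3 kb limit, and their summits 3207 and 3247 bp away. SSP4b, a gene whose annotated span overlaps that end of PHYE, was nearer to both summits, at 115 and 155 bp. No list 1 peak lay near PHYE. PHYD (AT4G16250) had only list 1 peaks, at chr4:9199655-9200282 and chr4:9200295-9200699, with folds of 1.17 and 0.90 and summits 71 and 636 bp beyond its high-coordinate end. The neighbour AT4G16260 was nearer to the first summit, at 61 bp, and contained the other. PHYC (AT5G35840) had no peak within 3 kb in any list. Its nearest peak in lists 2 and 3, at chr5:14020001-14020453 in both, was 8153 bp away with folds of 2.93 and 6.90, and its nearest list 1 peak was 21970 bp away.

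**Figure D2:**
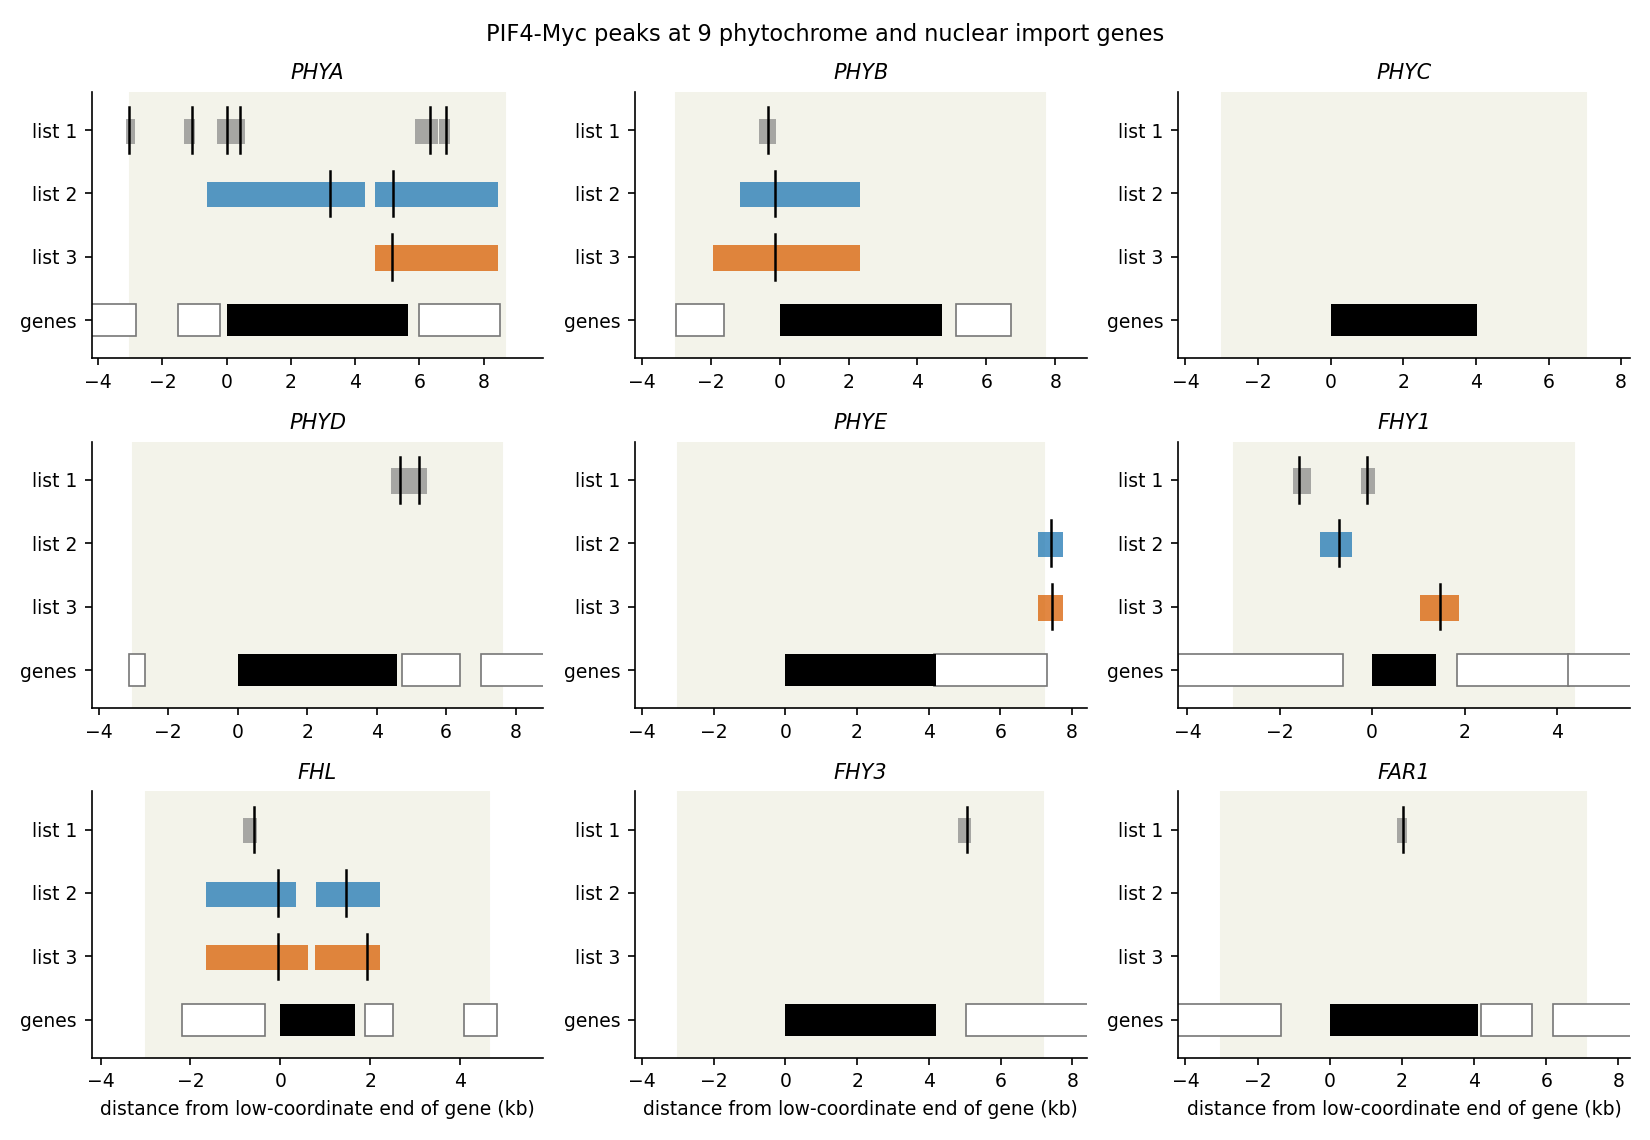
Peaks at the 9 genes by list. The x axis is the distance in kb from the low-coordinate end of each gene, black boxes are the named genes, white boxes are neighbouring protein-coding genes, coloured bars are peaks, black ticks are summits and the shaded band is the gene with 3 kb on either side. In lists 2 and 3 the PHYB summits share 1 base 141 bp outside the gene and the first FHL summits share 1 base 51 bp outside it, whereas at FHY1 the peaks of different lists do not overlap.

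The highest folds at FHL (AT5G02200) in lists 2 and 3 were above those at FHY1, the other carrier of phytochrome A. Its low-coordinate end had a peak at chr5:436530-436850 in list 1, at chr5:435701-437716 in list 2 and at chr5:435701-437973 in list 3. The folds were 0.58 in list 1, 4.93 in list 2 and 8.13 in list 3. List 1 placed the peak near the bottom of its ranking, at 11665 of 12177, while lists 2 and 3 placed it near the top, at 176 of 4093 and 144 of 2931. The summit was the same base in lists 2 and 3, 437314, which is 51 bp outside FHL and 296 bp from PCS1, the neighbour on that side, whose gap to FHL is 347 bp. The list 1 summit was 536 bp from that base and inside PCS1. The broad peak held 803 tags in list 2 (interval 748 to 861) and 698 in list 3 (647 to 752), at false discovery rates of 7.11% and 14.2%. A weaker peak lay at the other end, at chr5:438155-439592 in list 2 and chr5:438131-439592 in list 3, with folds of 1.56 and 2.57. It was among the lowest of both lists, at ranks 4035 of 4093 and 2890 of 2931, and its summits were 479 bp apart, 199 bp inside FHL in list 2 and in the neighbour AT5G02210 in list 3.

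FHY1 (AT2G37678) had a peak near it in every list, but no 2 of them overlapped. List 1 had peaks at chr2:15799707-15800096 and chr2:15801184-15801474, with folds of 1.28 and 1.19. List 2 had one at chr2:15800299-15800981 with a fold of 2.44, and list 3 had one at chr2:15802454-15803290 with a fold of 4.05. Both were close to the medians of their lists, at ranks 2070 of 4093 and 1592 of 2931, and had false discovery rates of 77.7% and 96.1%. The summits lay on different sides of the gene, 717 bp outside its low-coordinate end and within AT2G37670 in list 2, and 84 bp beyond its high-coordinate end in list 3. The count of genes with a peak in all 3 lists therefore includes FHY1 although it had no shared region.

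The transcription factor genes that act above FHY1 and FHL had no list 2 or list 3 peak. FHY3 (AT3G22170) had 1 list 1 peak, at chr3:7826813-7827176, with a fold of 1.17 and a summit 875 bp beyond the gene in AT3G22180. FAR1 (AT4G15090) had 1 list 1 peak, at chr4:8615935-8616208, with a fold of 1.21 and a summit inside the gene, 2033 bp from its low-coordinate end. The nearest peaks of lists 2 and 3 were 14420 and 12146 bp from FHY3, and 18839 bp from FAR1 in both lists.

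**Figure D3:**
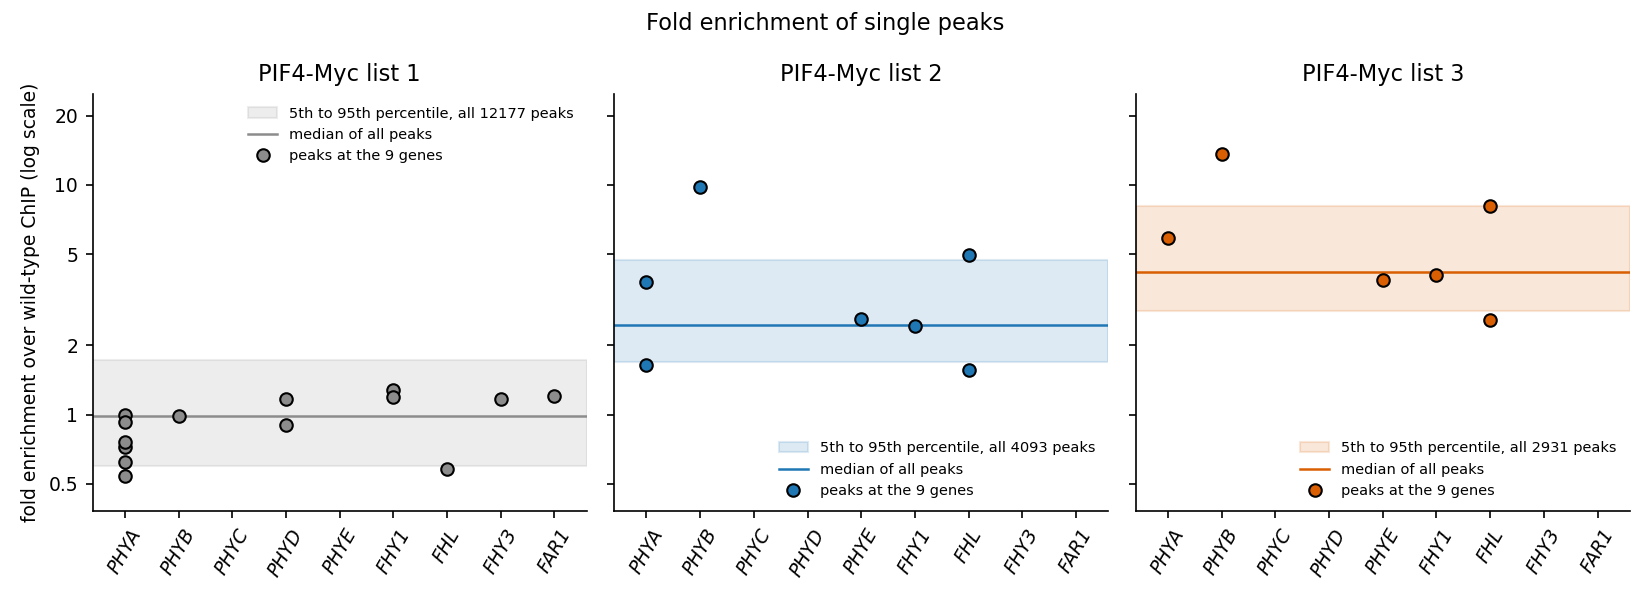
Fold enrichment over wild-type ChIP (log scale) of each peak at the 9 genes, in a panel per list, with the median (line) and the 5th to 95th percentile (band) of all peaks of that list. The PHYB peak and the stronger FHL peak lie above the band in lists 2 and 3, while no list 1 peak of the 9 genes exceeds 1.28.

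Over the 27 peaks the folds ran between 0.54 and 1.28 in list 1, between 1.56 and 9.83 in list 2 and between 2.57 and 13.7 in list 3. Of the 14 list 1 peaks, 8 had a fold below 1. Summits were inside the named gene for 7 of the 27 peaks, and the named gene was the nearest protein-coding gene for 14. By the highest fold within 3 kb, PHYB ranked 20 among 7238 genes with a list 2 peak and 28 among 5533 genes with a list 3 peak. FHL ranked 349 and 267, PHYA 958 and 1031, PHYE 3285 and 3404, and FHY1 3856 and 3081. The order PHYB, FHL, PHYA was thus the same in lists 2 and 3, which were not read as independent, and FHY1 and PHYE changed places. List 1 had another order. Among 17425 genes with a list 1 peak FHY1 ranked 4690, PHYA 10005, PHYB 10233 and FHL 16980. The median highest fold over the 5 genes with a peak was 3.78 in list 2 and 5.86 in list 3, beside 2.51 and 4.22 over all genes with a peak.

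Where the lists met was asked region by region. Merging overlapping peaks left 16 regions at the 9 genes, of which 6 had peaks of at least 2 lists: 2 at PHYA, 2 at FHL and 1 each at PHYB and PHYE. Without list 2 this count was 3, at PHYA, PHYB and FHL, which are also the 3 regions with a peak of every list. A further 8 regions had list 1 peaks only. The same split is not given here for all peaks of the series, so these region counts have no background beside them. All 5 member pairs of lists 2 and 3 shared a start or an end to the base, beside 74.9% of all such pairs, and 2 of 5 shared the summit base, beside 51.1%. Summits of lists 2 and 3 were within 100 bp in 4 of 5 pairs, beside 90.3% of all pairs. Between list 1 and list 2 none of the 6 member pairs had summits within 100 bp, beside 49.9% of all 1617 pairs, and between list 1 and list 3 none of 4, beside 41.1% of 971. These pairs are not separate cases, as most of the 6 are at PHYA, with 2 list 1 peaks under each of 2 list 2 peaks. The list 2 peaks in them were 2016 to 4911 bp wide, beside a median of 811 bp over list 2, which leaves room for large summit gaps. Overlap with list 1 at these genes is thus overlap with broad peaks, without summits within 100 bp. The closest case was PHYB, where the summits were 197 bp apart. There the summit of lists 2 and 3 lay inside the list 1 peak. Over all pairs the median summit gap was 102 bp for lists 1 and 2 and 170 bp for lists 1 and 3.

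The fold of list 3 was higher than that of list 2 at each of the 5 pairs, by a ratio between 1.39 at PHYB and 1.65 at FHL, with a median of 1.55. Over all 2454 pairs the median ratio was 1.59, with quartiles of 1.46 and 1.73, and the PHYB ratio lay below the lower quartile. Tag density went the other way. Per kb of peak and per 1000000 filtered tags, PHYB had 24.2 tags in list 3 and 39.8 in list 2, the stronger FHL peak 28.6 and 46.1, and PHYA 19.8 and 30.95. The ratio of list 3 to list 2 density was between 0.608 and 0.721 at the member pairs, beside a median of 0.677 over all pairs, with quartiles of 0.649 and 0.706. The ratios at PHYB, PHYE, PHYA and the stronger FHL peak lay below the lower quartile, and that of the weaker FHL peak above the upper one. Density also depends on peak width, which at PHYB was 3483 bp in list 2 and 4262 bp in list 3. The headers name different wild-type controls for these lists, w3s for list 3 and w1s for list 2, and the part of the control in this shift was not tested.

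**Figure D4:**
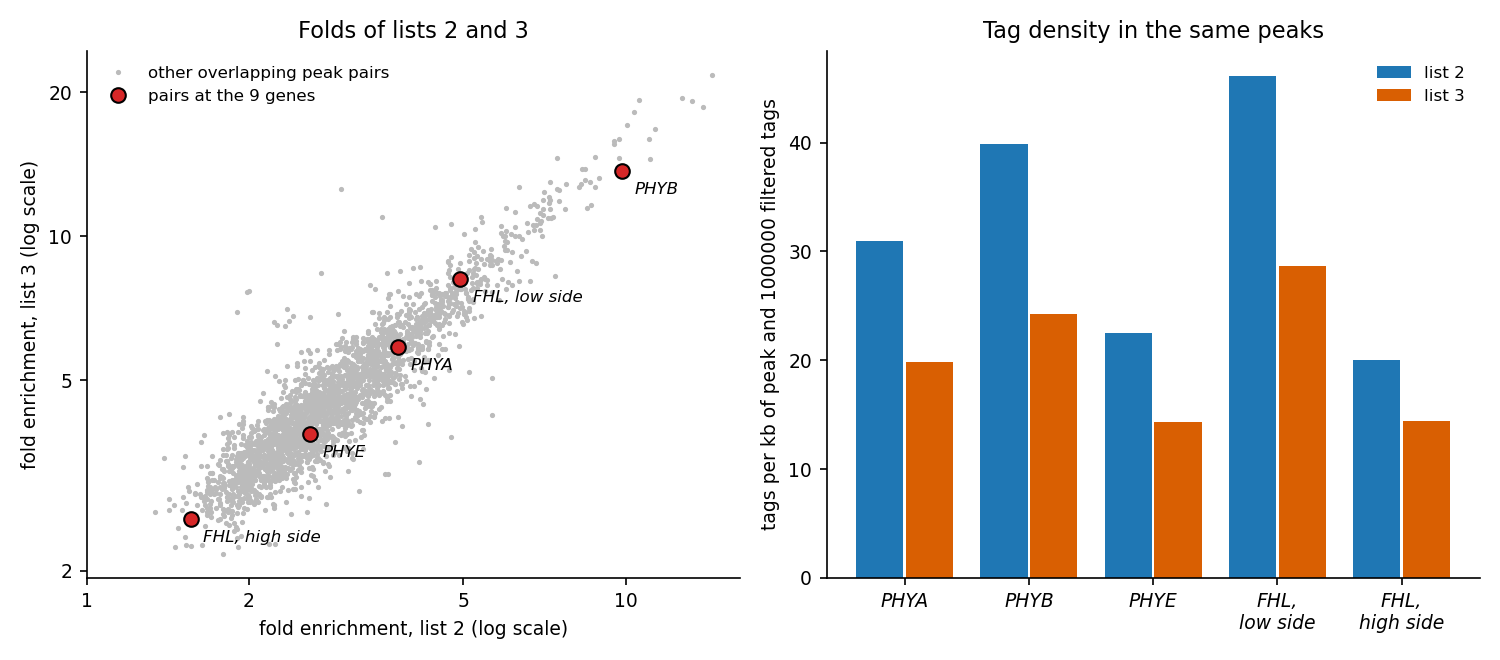
Left, fold enrichment in list 3 against list 2 (both log scales) for all overlapping peak pairs, with the 5 pairs at the 9 genes in red. Right, tags per kb of peak and per 1000000 filtered tags in the same 5 pairs; the fold was higher in list 3 in every pair, and the tag density was lower.

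Other genes of the phytochrome pathway were taken from a list of 25 genes: 5 of chromophore synthesis, 8 partners and turnover factors and 12 FHY3/FAR1 relatives. Of the 25, 5 had a peak in both lists 2 and 3, a share near the 17.1% of all genes, and these 5 also had a list 1 peak. The 5 genes of chromophore synthesis, among them HY1, a haem oxygenase, and HY2, the phytochromobilin synthase, had no peak in list 2 or 3, beside the 26.4% and 20.2% of all genes that had one. In list 1 there were peaks at 3 of the 5, beside 63.5% of all genes, with folds of 0.76 at HY1, 1.91 at HO4 and 1.4 at HY2. These counts of 5 genes are near the background. Among the partners and turnover factors 4 of 8 had peaks in both lists 2 and 3, beside 17.1% of all genes. All 8 had a list 1 peak, beside 63.5% of all genes. This group is a small part of the 25 genes, and its counts were not tested. LRB1, an adaptor of a ubiquitin ligase that acts on phytochrome B, had folds of 0.62, 3.33 and 5.54 in lists 1, 2 and 3, but its summits were nearer to the bZIP gene GBF3, at 543 bp, than to LRB1, at 965 bp. The phosphatase gene PAPP5 had folds of 1.65, 3.63 and 5.01, with the summits of lists 2 and 3 at 220 bp from SHP2 and 3122 bp from PAPP5. AT2G16365 had folds of 1.30, 3.78 and 4.19 with the summit in the gene in both lists 2 and 3. AT4G34550 had folds of 0.90, 2.65 and 4.14, with summits inside its neighbour AT4G34540. Of the 12 FRS genes, 1 had peaks in both lists 2 and 3, beside 17.1% of all genes. It was FRS2, with folds of 0.96, 2.75 and 4.03 in lists 1, 2 and 3. Its summits were 908 and 903 bp from the gene, with false discovery rates of 35.7% in list 2 and 99.97% in list 3. At the other 4 genes these rates were between 1.49% and 24.2% in list 2 and between 13.2% and 40.1% in list 3.

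For the 4 members with a peak in all 3 lists, the most similar genes were sought among 3478 other genes with a peak in all 3 lists, as those with the smallest distance in within-list percentile of the highest fold over the 3 lists. For PHYB they were its neighbours AT2G18770 and AT2G18780, whose windows hold the same peaks, and then GAI, a DELLA repressor gene of gibberellin signalling, at 1.96 percentile points with folds of 1.00, 6.64 and 11.6. For FHL they were its neighbours PCS1 and AT5G02210 and then PLAT3, at 2.87 points. For PHYA the nearest was GATL3, at 2.65 points, with folds of 1.01, 3.68 and 5.73. After it came AT1G19330, at 3.86 points, and PDH-E1 ALPHA, at 4.21 points. For FHY1 it was the neighbour AT2G37670 and then AT4G26940 and AT4G26950, both at 1.65 points.

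Besides the PHYE peaks, 1 peak was taken in just inside the 3 kb limit, the list 1 peak at chr1:3092042-3092317 that ended 2843 bp from PHYA. The peaks left out within 4 kb were list 1 peaks 3780 bp from FAR1, 3787 bp from FHY3 and 3944 bp from PHYD, with folds of 1.60, 0.83 and 0.66. The closest list 3 peak left out lay 5077 bp from PHYD, at chr4:9204917-9206268, with a fold of 3.15, and no list 2 peak lay within 50 kb of PHYD.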

How the data were processed

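Per the file headers, each PIF4-Myc library was set against a wild-type ChIP in its own peak calling, with a p cutoff of 1e-05 and a band of 300. List 2 was made with MACS 1.4.1 and the others with MACS 1.4.0rc2. Per the submitters' processing notes, the tools were Bowtie 0.12.7, CASAVA 1.8.0 and MACS 1.4.1, and the build was TAIR10. Reads were single-end, of 50 cycles, from fragments of 200 to 300 bp, per the labels' protocols. The headers name 1 control, w1s, for lists 1 and 2 and another, w3s, for list 3.

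Tags per peak in lists 2 and 3 were deposited by the authors as counts; those of list 1 were treated as a score, being multiples of 5. The deposited peak score is −10 times log10 of the caller's p-value. Fold is the authors' ratio at the summit, and the false discovery rate is the authors' percent. Tag densities used the filtered tags in the headers, 8634942 for list 2 and 10730507 for list 3; that of list 1, 112342435, exceeds its total and was not used.

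Gene spans came from the RefSeq table of assembly TAIR10.1, taken to share nuclear coordinates with TAIR10. Of the list 2 and 3 summits, 62.7% lay outside genes. Shifting them by -250 and 250 bp gave 60.7% and 60.8%, and by -2000 and 2000 bp 44.0% and 45.0%. A peak belonged to a gene if it overlapped it or 3 kb to either side, and peaks sharing 1 bp were merged. The overlap code (Python 3.11.15, pandas 2.3.3) was tested on simulated peaks and against bedtools 2.31.1.

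The members, the pathway list and the alternatives were chosen with earlier results of these data known. Named genes are all 9 members with all their peaks, the pathway genes with peaks in lists 2 and 3, and the 3 genes most like each member with peaks in all 3 lists. The HY1, HO4 and HY2 values were added after they were seen. The share among genes of 4 kb or more was also chosen after seeing the data. FHY3/FAR1 relatives were matched by symbol. Promoter motifs and protein sequences, planned at first, were not analysed here.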

Additional observations from a re-analysis of the deposited data

How the results depend on the processing

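Each count of the 9 genes is given with the share of all protein-coding genes under the same setting. Counts of shared regions have no such share. The count for lists 2 and 3 was 4 with windows of 1 kb (10.1%) and 2 kb (13.7%) and with the summit required within 3 kb (15.3%), as PHYE dropped out. A window of 5 kb left the counts at 5 for at least 2 lists (35.9%), 4 for all 3 (19.96%) and 5 for lists 2 and 3 (23.6%). With 2931 peaks from each list, the counts in that order were 5 (17.8%), 3 (3.83%) and 5 (15.2%). With the nearest gene of a summit alone, 2 genes had peaks in all 3 lists (4.12%) and 3 in lists 2 and 3 (7.49%). Keeping in each list the 50% of peaks with the best p gave 3 (12.5%), 2 (4.48%) and 3 (9.24%), and 3 shared regions. At a false discovery rate of 1% or less the counts were 0, 0 and 0, beside 0.0838%, 0.0% and 0.00729%. Only 166, 85 and 2 peaks of lists 1, 2 and 3 entered there. With a fold of at least 2 the count for all 3 lists was 0 (0.197%), and the others were 5 (15.4%) and 5 (15.3%). Fewer peaks enter under these stricter rules. Leaving out each list gave 4 to 5 genes with a peak in both remaining lists, which were 5 without list 1 (17.1%), 4 without list 2 (14.7%) and 4 without list 3 (19.5%). Shared regions then numbered 3 to 5, the lowest without list 2. A reciprocal overlap of 50% gave 5 shared regions and summits within 100 bp gave 4, each of lists 2 and 3. No paired analysis was possible because the caller's p belongs to a peak within 1 list and wild-type libraries have no values of their own. Alternatives on promoter motifs were not run. Depth per position was not used here, so folds carry no counting interval.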

Other observations

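The surroundings of the 9 genes differed in how many peaks they held. Within 50 kb of PHYC there was 1 peak in each list beside 11 protein-coding genes, the member included. Within 50 kb of PHYD there were 14 peaks of list 1, 0 of list 2 and 1 of list 3 beside 27 genes, and around its relative PHYB there were 15, 5 and 3 beside 28 genes. FHL had 10, 7 and 7 beside 32 genes, the most of lists 2 and 3 around any of the 9 genes. The same counts are not given here for other genes, so these numbers have no background beside them. No test was made of them.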
